A study of Mus musculus with 2 samples.

Results

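The SoxD genes *Sox5*, *Sox6* and *Sox13* and the SoxE genes *Sox8* and *Sox10* encode transcription factors that bind DNA through an HMG box. To ask where DLX2, a homeodomain transcription factor, was detected around them, CUT&Tag peaks were taken inside the annotated extent of each gene or within 100 kb of it. The 5 genes are among 21775 protein-coding genes with a position in the mouse build GRCm38, which the peak files call mm10. They had 58 of the 28061 peaks of replicate 1, 101 of the 62093 peaks of replicate 2 and 20 of the 10921 regions covered by a peak of both replicates, here called shared regions. The study reported fewer peaks in each of its replicates and fewer common to both. The shared regions here are therefore not its set, and the reason for the difference is not known. Both libraries came from maxillary process cells of wildtype C57BL/6 mice at E12.5 and were made with an antibody against DLX2. CUT&Tag uses an antibody to direct a transposase, so that sequenced fragments gather where its target sits. No treated group, other genotype or control library was used here, and how many embryos went into each library is not given in the sources used here. With 1 group of 2 libraries no test between conditions was possible, and peak lists hold no expression values by which the tissue label could be checked against marker genes.

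SOX5 and SOX6 lack an activation domain of their own, and act together with the SoxE protein SOX9 when mesenchymal cells form cartilage. SOX13 is best known from T cells of the gamma delta lineage. SOX10 keeps neural crest cells multipotent and then directs glial and pigment cell fates, and SOX8 shares part of the roles of SOX9 and SOX10. Most mesenchyme of the maxillary process derives from the cranial neural crest.

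*Sox5* held most of the shared regions among these genes. It had 17 of the 20, whereas *Sox6*, *Sox13* and *Sox10* had 1 each and *Sox8* had 0. A shared region was thus found at 4 of the 5 genes, beside 60.2% of all protein-coding genes with windows drawn the same way. Only *Sox5* had shared regions inside the gene, which 14.6% of protein-coding genes of any length had. Of the 226 that span at least 500 kb, a length chosen after the data were seen, only 48 had none inside. Each of the 5 genes had a peak in each replicate taken alone, as 83.0% of protein-coding genes did in replicate 1 and 91.7% in replicate 2. Holding a peak or a shared region is therefore common, and the genes differed in how many they held and where.

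The windows differ in length, so densities are given per Mb. *Sox5* spans 954 kb, *Sox6* 570 kb, *Sox13* 42.2 kb, *Sox10* 9.58 kb and *Sox8* 4.79 kb. *Sox5* had 14.7 shared regions per Mb of window, against a median of 4.40 over all protein-coding genes. More shared regions per Mb were found at 8.27% of protein-coding genes. *Sox10* had 4.77 and *Sox13* 4.13 shared regions per Mb, both close to that median, and *Sox6* had 1.30. The 2 long SoxD genes thus stood on opposite sides of this median, which is over genes of all lengths. Genes of at least 500 kb are set beside them further below, per Mb of gene. Most windows are short, with a median of 0.217 Mb, so 1 region moves their density far.

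**Figure D1:**
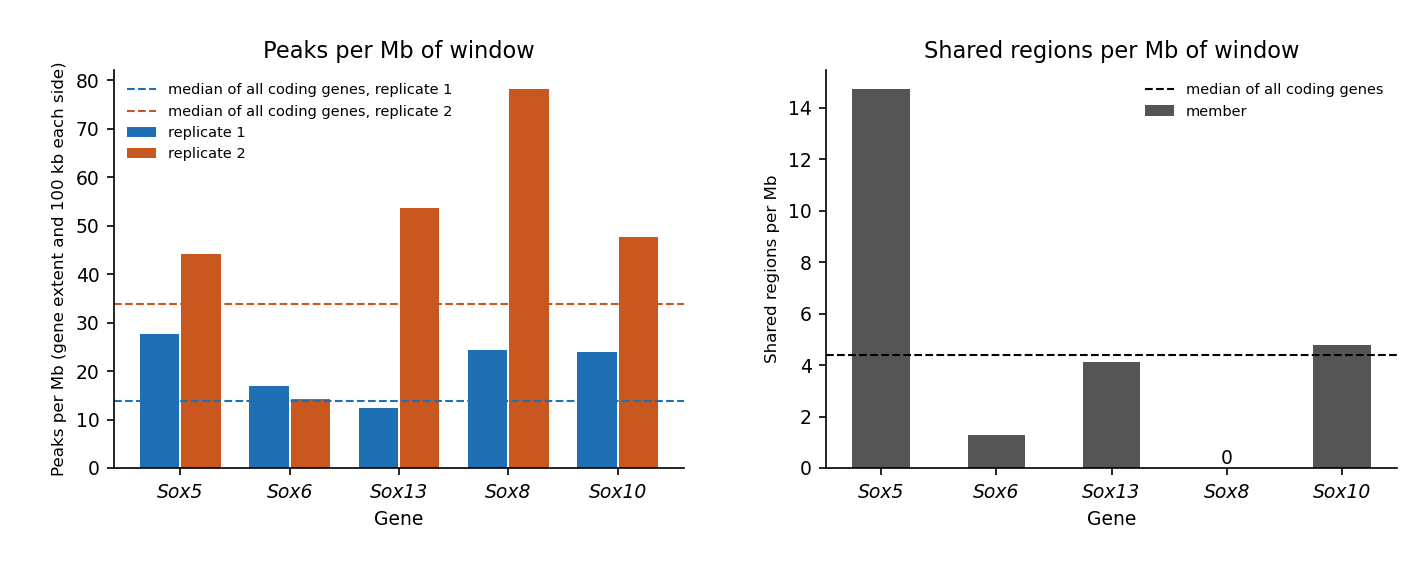
Peaks per Mb in each replicate (left) and shared regions per Mb (right) in the extent of each gene and 100 kb on each side; each bar is 1 gene and dashed lines are medians over all protein-coding genes, 13.7 peaks per Mb in replicate 1, 33.7 in replicate 2 and 4.40 shared regions per Mb. *Sox8* has the most peaks per Mb in replicate 2, at 78.1, and 0 shared regions, whereas *Sox5* has 14.7 shared regions per Mb.

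The number of peaks moved with the library. Over the 5 genes the replicates had a mean of 79.5 ± 30.4 peaks (SD, n = 2). *Sox5* had 32 peaks in replicate 1 and 51 in replicate 2, a mean of 41.5 ± 13.4 (SD, n = 2). *Sox6* had 13 and 11 peaks, *Sox13* 3 and 13, *Sox8* 5 and 16, and *Sox10* 5 and 10, each in the order of the replicates. Replicate 2 had 2.21 times as many peaks as replicate 1 over the whole genome and 1.74 times as many over these genes. The ratio ran from 0.846 at *Sox6*, the only gene of the 5 with fewer peaks in replicate 2, to 4.33 at *Sox13*.

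The deposited lists give no read numbers, but the fragments at each summit could be worked out from the deposited fold enrichment and −log10 p. Fold enrichment compares the summit with a background value in that library, and the −log10 p and −log10 q are those of the peak caller. Peaks at different genes can share the lowest background of the library. At *Sox5*, 8 of the 32 replicate 1 peaks and 22 of the 51 replicate 2 peaks stood within 1% of it. The median peak rested on 6 fragments in replicate 1 and 9 in replicate 2, and the lowest background in the library was 0.387 fragments in replicate 1 and 1.1 in replicate 2. By this measure replicate 2 was the deeper library, and many single peaks rest on few fragments. Intervals below are 95% Wilson intervals and cover counting error only.

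A larger share of peaks had a counterpart in the other replicate at *Sox5* than at the other 4 genes. Of the 32 replicate 1 peaks at *Sox5*, 17 met a replicate 2 peak, or 53.1% (interval 36.4 to 69.1%), beside 38.9% of all replicate 1 peaks. Of the 51 replicate 2 peaks at *Sox5*, 17 met a replicate 1 peak, or 33.3% (interval 22.0 to 47.0%), beside 17.2% of all replicate 2 peaks. The other 4 genes together had 26 peaks in replicate 1, 3 of them met, which is 11.5% (interval 4.0 to 29.0%). They had 50 in replicate 2, again with 3 met, which is 6.00% (interval 2.06 to 16.2%). The met peaks of *Sox5* are those of the 17 shared regions that set it apart. Its intervals are therefore compared neither with those of the other 4 genes nor with the shares of the whole library. Over all 5 genes the shares were 34.5% in replicate 1 (interval 23.6 to 47.3%) and 19.8% in replicate 2 (interval 13.2 to 28.6%). Both of these pooled intervals contain the share of the whole library. Neighbouring peaks are not independent, so these shares are a description and no test was made.

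*Sox5* lies on the minus strand at chr6:143828425-144782287, so that its upstream end is the end of higher coordinate. Of its 17 shared regions, 12 lay in the gene and 5 beyond the upstream end, while none lay in the 100 kb beyond the downstream end. That downstream flank had 0 peaks in replicate 1 and 2 in replicate 2, against 6 and 10 in the upstream flank. The annotation used here gives gene extents without exons, so exon and intron could not be told apart. No shared region lay within 2 kb of either end of the gene.

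**Figure D2:**
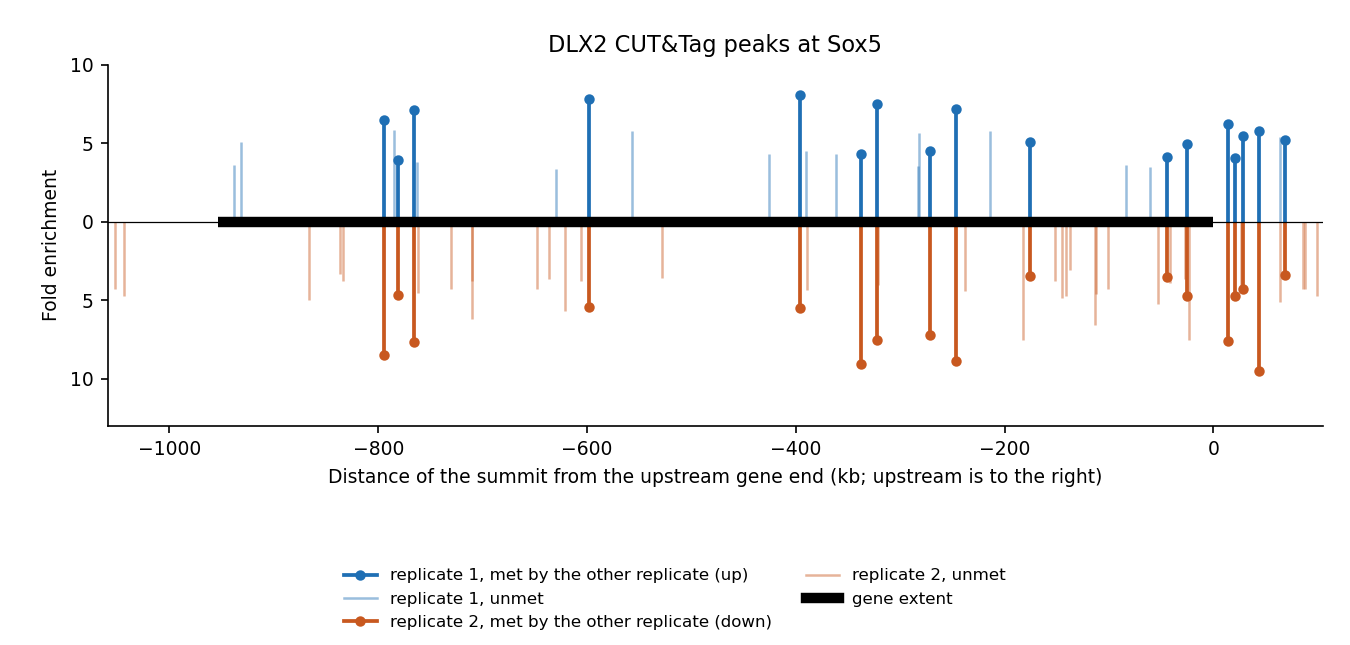
Peaks at *Sox5* by distance of the summit from the upstream gene end (kb, x axis) and fold enrichment (y axis), with replicate 1 drawn up and replicate 2 drawn down; thick lines with dots met a peak of the other replicate, thin lines did not, and the black bar is the gene. The 17 met positions run from 68.5 kb upstream of the gene to 794 kb into it, with none in the last 159 kb of the gene or beyond its downstream end.

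By the fold in the replicate where it was lower, the first region lay at chr6:144460187-144460477, 322 kb into the gene from its upstream end. Its fold was 7.47 in replicate 1 and 7.52 in replicate 2, on 11 and 18 fragments. The second lay at chr6:144535339-144535651, 247 kb into the gene, with a fold of 7.15 and 8.91 on 11 and 23 fragments. The third lay at chr6:144016043-144016335, 766 kb into the gene, with folds of 7.13 and 7.65 on 10 and 18 fragments. The fourth, at chr6:143987695-143987958 and 794 kb into the gene, had folds of 6.44 and 8.49 on 8 and 17 fragments. These 4 were the only shared regions of *Sox5* with a −log10 q of at least 5 in both replicates. The fifth lay outside the gene, at chr6:144796336-144796532, 14.1 kb upstream, within the long non-coding RNA gene *Gm32069*. Its fold was 6.20 in replicate 1, where the −log10 q was 4.72, and 7.62 in replicate 2.

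The other 12 shared regions of *Sox5* had lower folds between 3.42 and 5.77. Within the gene they lay 25.6, 44.0, 176, 271, 337, 396, 598 and 781 kb from the upstream end. Beyond it they lay 21.0, 28.0, 43.3 and 68.5 kb upstream. The region 21.0 kb upstream was again in *Gm32069*, and those 43.3 and 68.5 kb upstream lay in the pseudogene *Gm20124*, the latter also in the long non-coding RNA gene *Gm32124*. Neighbouring shared regions of *Sox5* were a median of 24.8 kb apart, and the gaps ran from 6.88 to 202 kb. Of the 12 regions in the gene, 8 lay nearer to its upstream end than to its downstream end.

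Which replicate had the higher enrichment along *Sox5* depended on how enrichment was taken. The fold adds 1 to fragments and background alike, which lowers it more in the library with less background, and by this measure replicate 2 was higher in 10 of the 17 shared regions. With nothing added, fragments over background were higher in replicate 2 in only 2 of the 17, with medians of 15.5 in replicate 1 and 9.04 in replicate 2. No order of the libraries is therefore read from the folds. At chr6:144444665-144444932 the fold was 4.33 in replicate 1 and 9.04 in replicate 2, on 5 and 18 fragments. Its fragments over background, 12.9 and 16.4, kept that order. At chr6:144386122-144386310 the fold was 8.04 in replicate 1 and 5.52 in replicate 2, on 11 and 12 fragments, and at chr6:144183645-144184001 it was 7.82 and 5.41, on 11 fragments in each. In both, fragments over background were also higher in replicate 1. These 3 regions were chosen after their values were seen. Over the 17 regions the median fold was 5.42 in replicate 1 and 5.52 in replicate 2.

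Some *Sox5* peaks of high fold were listed in 1 replicate only. In replicate 2 a peak at chr6:144599496-144599744, inside the gene, had a fold of 7.53 on 19 fragments, and the nearest replicate 1 peak was 6.51 kb away. Another at chr6:144758203-144758649, 23.8 kb into the gene, had a fold of 7.52 on 18 fragments, with a replicate 1 peak 1.36 kb away. In replicate 1 the highest fold without a counterpart was 5.83. Fold enrichment of at least 5 was reached by 17 of the 32 replicate 1 peaks, 11 of which were met, and by 18 of the 51 replicate 2 peaks, 10 of which were met. The single peaks named in this paragraph, and those without a counterpart named at the other genes, were likewise chosen after their values were seen.

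*Sox6*, the partner of *Sox5* in cartilage, showed another pattern. It lies on the minus strand at chr7:115470872-116040776, and its only shared region lay outside it, at chr7:115465094-115465425, 5.61 kb beyond the downstream end. This region had the highest fold in replicate 2 of all 20 shared regions, 11.7 on 30 fragments, and a fold of 7.46 on 12 fragments in replicate 1. Its −log10 q was 7.14 in replicate 1 and 22.6 in replicate 2. The summits lay 41 bp apart.

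Inside *Sox6* there were 8 peaks in replicate 1 and 6 in replicate 2, and none of them met. Of the 13 replicate 1 peaks at the gene, 7 stood within 1% of the lowest background inferred for the library, as did 7 of the 11 in replicate 2. Apart from the shared region, the folds in replicate 2 ran from 3.22 to 4.28. The strongest replicate 1 peak inside the gene, at chr7:115557584-115557801, had a fold of 7.21 on 9 fragments, and no replicate 2 peak lay within 39.6 kb of it. Of 226 protein-coding genes that span at least 500 kb, a length chosen after the data were seen, 48 held no shared region, *Sox6* among them. Their median was 1.97 shared regions per Mb of gene, with quartiles of 0.881 and 5.36. *Sox5* had 12.6 per Mb of gene, and 13 of the 226 had more.

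**Figure D3:**
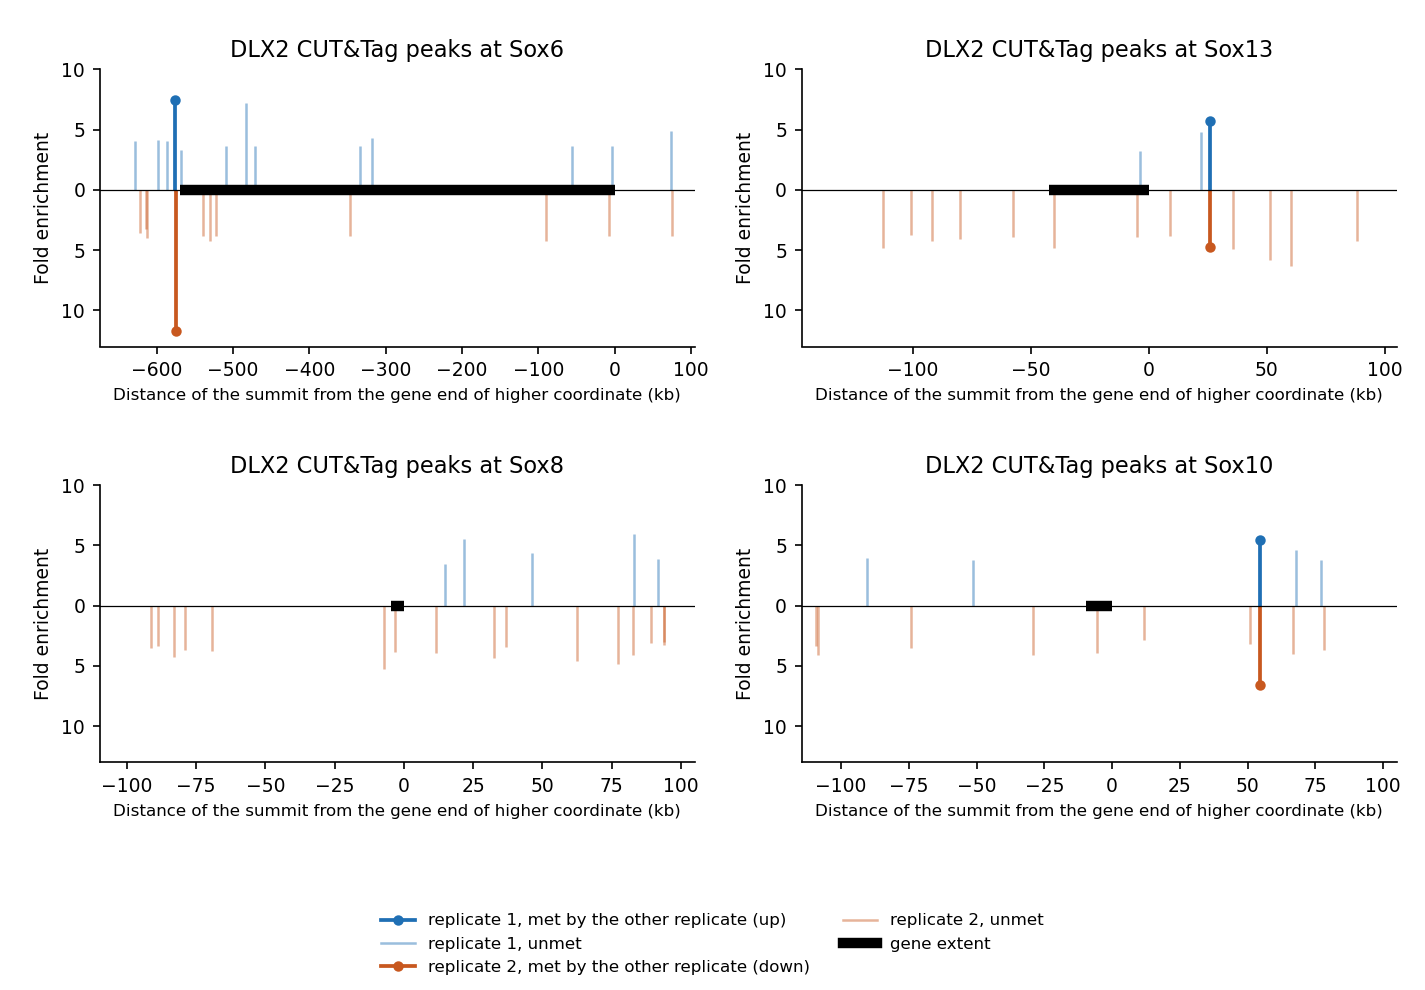
Peaks at *Sox6*, *Sox13*, *Sox8* and *Sox10* by distance of the summit from the gene end of higher coordinate (kb, x axes) and fold enrichment (y axes), drawn as for *Sox5* with replicate 1 up, replicate 2 down, dots on peaks met by the other replicate and a black bar for the gene. Each of *Sox6*, *Sox13* and *Sox10* has 1 met position, outside the gene in all 3 cases, and *Sox8* has 0.

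The RefSeq promoter table for GRCm38.p6 lists 9 start sites for 4 of the genes, 6 of them for *Sox6* and none for *Sox10*. None of the shared regions lay within 2 kb of one of these 9. The nearest shared region of *Sox5* was 40.7 kb from its listed start, an internal one. Peaks of single replicates came within 2 kb of 2 of the 9 start sites. At the internal start of *Sox5*, replicate 2 had summits 1202 bp downstream and 1597 bp upstream, with folds of 3.33 and 3.81, and replicate 1 had 0 peaks. At the outermost listed start of *Sox6*, replicate 1 had a summit 1393 bp downstream with a fold of 3.60 on 4 fragments, and replicate 2 had 0 peaks. No peak reached the 250 bases before any of the 9 start sites. Those bases are shown for the start sites of *Sox5* and *Sox6* that had a peak of either replicate within 2 kb. Both are given 5′ to 3′ on the minus strand of GRCm38.p6, at chr6:143947107-143947356 for *Sox5* and chr7:116038745-116038994 for *Sox6*, with the letters TAAT or their reverse complement ATTA, the core of homeodomain sites, in capitals.
*Sox5*: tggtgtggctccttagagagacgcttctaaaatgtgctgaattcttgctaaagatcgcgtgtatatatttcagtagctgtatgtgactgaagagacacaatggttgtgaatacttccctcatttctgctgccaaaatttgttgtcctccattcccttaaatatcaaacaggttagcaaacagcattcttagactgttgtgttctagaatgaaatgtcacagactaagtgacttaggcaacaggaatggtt
*Sox6*: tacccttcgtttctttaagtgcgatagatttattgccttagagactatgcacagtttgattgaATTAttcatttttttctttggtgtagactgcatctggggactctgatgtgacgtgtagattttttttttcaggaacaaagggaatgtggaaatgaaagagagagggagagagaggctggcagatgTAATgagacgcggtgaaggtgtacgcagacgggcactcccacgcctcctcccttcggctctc

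The *Sox5* sequence holds no TAAT on either strand, and the *Sox6* sequence holds it 2 times. Over the 9 windows, TAAT was found in 4, all of them at *Sox6*, beside 54.9% of 32851 listed promoters cut to the same length. The longer palindrome TAATTA, which contains it, was found in 0 of the 9 windows, beside 4.84% of promoters. The RUNX core ACCACA was present in 2 of the 9, beside 14%, the E-box CACGTG in 1, that of *Sox8*, beside 6.02%, and the SOX core ACAAT in 4, beside 27.7%. Both strands were searched in each case. These are counts of letters and not of binding sites. The sequences under the peaks themselves were not analysed here.

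*Sox13* lies on the minus strand at chr1:133382300-133424459. Its shared region, at chr1:133450091-133450361, was 25.8 kb upstream of the gene in no annotated gene. The fold there was 5.72 in replicate 1 and 4.74 in replicate 2, on 10 and 11 fragments, and the −log10 q stayed below 5 in both. Replicate 2 had 12 further peaks, the strongest of them at chr1:133484463-133484846, 60.2 kb upstream, with a fold of 6.31 on 16 fragments and no replicate 1 peak within 34.1 kb. Inside the gene there was 1 peak in replicate 1, with a fold of 3.21 on 4 fragments, and 2 in replicate 2, with folds of 4.80 and 3.94. None of these overlapped.

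Among the SoxE genes, *Sox10* at chr15:79154913-79164490 had 1 shared region, at chr15:79219104-79219387. It lay 54.8 kb beyond the end of higher coordinate and reached the end of the long non-coding RNA gene *Gm52189*. The fold was 5.42 in replicate 1 and 6.56 in replicate 2, on 9 and 21 fragments, and the summits lay 13 bp apart. The strand and start of *Sox10* were not given by the tables used here. Within *Sox10* itself there was 1 peak, in replicate 2, with a fold of 3.97 on 13 fragments, and the nearest replicate 1 peak was 45.8 kb away. Farther from the gene than the shared region, the replicates had peaks 886 bp apart and again 738 bp apart without meeting.

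*Sox8* had peaks in both libraries but no position in common. It lies on the minus strand at chr17:25565893-25570686, and its window had 5 peaks in replicate 1 and 16 in replicate 2. None of the 5 met, for which the interval reaches 43.4%, and none of the 16, for which it reaches 19.4%. The closest approach was at chr17:25653703-25653804 in replicate 1, with a fold of 5.97 on 10 fragments, and chr17:25653309-25653451 in replicate 2, with a fold of 4.12 on 12 fragments, 252 bp apart and 82.7 kb or more upstream of the gene. The gene itself held 1 replicate 2 peak, with a fold of 3.86, and 0 in replicate 1. The highest fold in replicate 2 was 5.24, at chr17:25563570-25563861, with its summit 2.22 kb beyond the downstream end.

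The background inferred under the peaks differed between the genes. At *Sox8* its median was 2.13 times the lowest background of the library in replicate 1 and 2.2 times in replicate 2, and at *Sox10* it was 2.15 and 2.02 times. No peak of either library at these genes stood within 1% of the lowest background. At *Sox13* the medians were 2.26 and 1.35 times, at *Sox5* 1.2 and 1.08 times, and at *Sox6* both were 1.0. Other protein-coding genes in the windows numbered 8 at *Sox10*, 5 at *Sox13*, 3 at *Sox8*, 2 at *Sox6* and 0 at *Sox5*. The part of background and gene density in the number of shared regions was not tested.

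Taken as a set, the 20 shared regions had a median length of 246 bp, against 151 bp over all shared regions. A fold of at least 5 in both replicates was reached by 10 of them, or 50%, beside 35.1% of all shared regions. A −log10 q of at least 5 in both was reached by 5, or 25%, beside 15.6%. Their median lower fold was 5.09, against 4.51 over all shared regions, and the median distance between the summits was 50 bp, against 63 bp. These are descriptions of a small set in which *Sox5* supplies 17 regions.

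**Figure D4:**
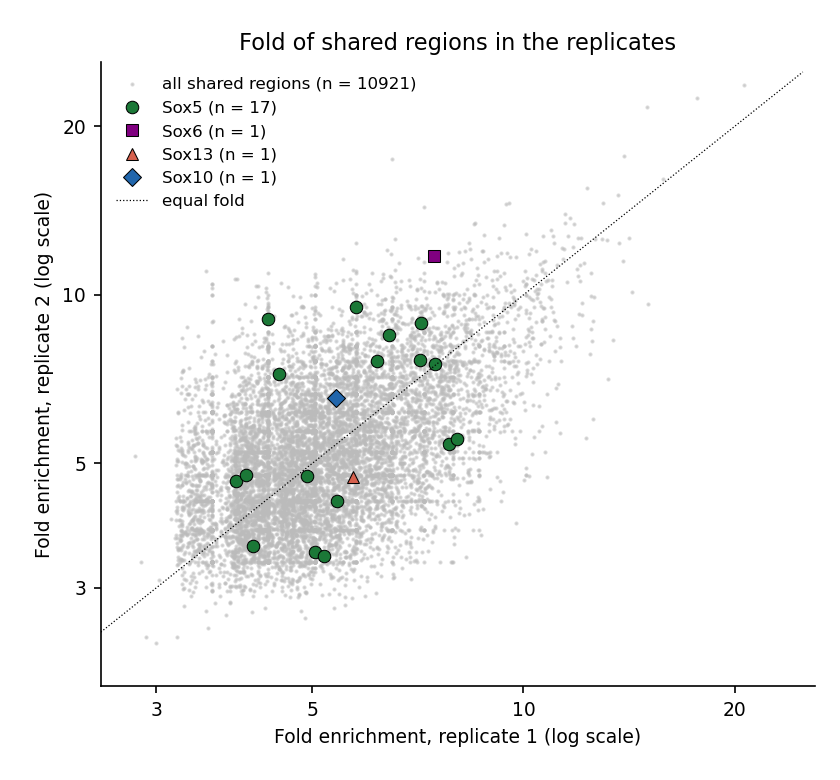
Fold enrichment in replicate 1 (x axis) and replicate 2 (y axis), both on log scales, for all 10921 shared regions (grey) and the 20 at the 5 genes (coloured by gene); the dotted line marks equal fold. The *Sox5* regions lie within the cloud, and the *Sox6* region is the highest of the 20 on the replicate 2 axis, at 11.7; the place of a point above or below the line depends on the 1 that the fold adds to fragments and background.

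The remaining genes of the family and of the pathways in which these factors act were counted with the same windows. Of 14 other Sox genes, 12 had a shared region, with a median of 2 per gene against 1 over all protein-coding genes, and 0 had one inside the gene. *Sox1*, a gene of neural progenitors, had the most, with 5. Per Mb of window these genes had a median of 9.69 shared regions, and *Sox1* with 24.5, *Sox14* with 14.8, *Sox9* with 14.6 and *Sox7* with 14.5 were near or above the 14.7 of *Sox5*, in far shorter windows. *Sox9*, the third SoxE gene, had 3 shared regions, all beyond its end of lower coordinate, from 4 peaks of replicate 1 and 8 of replicate 2. Of 12 genes of the cartilage programme, 10 had a shared region and 2 had one inside the gene, with a median of 1 per gene, led by *Chst11* with 8, *Comp* with 5 and *Col9a3* with 3. *Col2a1*, the gene of the main cartilage collagen, had 10 peaks in replicate 2 but 0 in replicate 1, and so 0 shared regions. Of 15 glial, pigment cell and neural crest genes of the SOX10 network, 8 had a shared region and 5 had one inside the gene, with a median of 1 per gene, led by *Mbp* with 6, *Ngfr* with 5 and *Mitf* with 4. These counts stand beside the 60.2% of protein-coding genes with a shared region and the 14.6% with one inside the gene, and genes of different length were not set equal.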

How the data were processed

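CUT&Tag peaks for DLX2 were analysed in 2 wildtype libraries, which form 1 group and are numbered in the order of their records. Per the labels, Trim Galore 0.4.5, Bowtie 1.1.2 and MACS2 2.2.7 were used with the build mm10; the methods of the study name bowtie2 and another version of Trim Galore, and no peak caller. The labels describe sonicated chromatin and the methods a transposase kit. Which account holds was not settled here. Each replicate has its own peak list, not a pooled one, and the peak caller's settings are not given in the sources used here. The lowest −log10 q listed was 1.00 in replicate 1 and 1.00 in replicate 2.

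The deposited values used were the fold enrichment, a ratio of summit to background, the −log10 p and the −log10 q. The deposited score is the whole part of 10 times the −log10 q in 100% of peaks, and the summit position was deposited as bases from the peak start. Fragments and background at each summit were solved from fold = (fragments + 1)/(background + 1) and an upper Poisson tail; a whole number was found for 100% of peaks in each replicate, within 0.001 of the −log10 p. They are inferred values.

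Shared regions had at least 1 bp covered by a peak of each replicate. Gene extents and start sites came from RefSeq tables of GRCm38.p6; 340 genes listed before position 3000000 of chromosomes 1 to 19 and X were left out. The genes, the lists and the rule for printed regions (up to 5 per gene, ranked by the smaller of both folds) were chosen with earlier results of these data known. Other thresholds, windows and overlap rules were tried. Scripts were tested on simulated data. Analyses ran in Python 3.11.15 with pandas 2.3.3, scipy 1.17.1, matplotlib 3.10.9 and numpy 2.4.6.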

Additional observations from a re-analysis of the deposited data

How the results depend on the processing

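With 2 libraries of 1 group and no control library, background common to both libraries was not measured. Of 29 recomputed summary values, 19 stayed within 1.5 times the count or within the interval of the share, and 10 did not. A −log10 q of at least 5 left 8 peaks in replicate 1 and 17 in replicate 2, a rounded mean of 13, and 5 shared regions, of which 80.0% lay in the gene. Under it 62.5% of replicate 1 peaks and 29.4% of replicate 2 peaks were met. A fold of at least 5 left 23 peaks and 10 shared regions, with 43.5% of replicate 2 peaks met. The extent of the genes alone gave 42.0 peaks and 12 shared regions. The lower counts follow from the filters; the cause of the changed shares was not tested. Taking 1 replicate alone gave 58 to 101 peaks. *Sox5* had the most shared regions of the 5 genes under each of these settings, with 4 at the q filter, 8 at the fold filter, 12 in the gene alone, 16 with 50 kb flanks (a count by gene that was added after seeing the data), 14 with 50% of each peak shared and 15 with summits within 150 bp. *Sox13* had 0 at the q and fold filters, *Sox10* 0 at the q filter and with 50 kb flanks, and *Sox6*, *Sox13* and *Sox10* 0 in the gene alone. Fragments over background with nothing added, also chosen after seeing the data, were higher in replicate 2 in 3 of the 20 shared regions, against 12 by fold. No paired analysis was possible because there is only 1 group.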
